A study of Mus musculus with 6 samples.

Results

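Serpins are protease inhibitors that share a fold and carry an exposed reactive loop. A target protease cuts the loop and is then trapped in a covalent complex, so that each inhibitor molecule is used once. The liver secretes most of the serpins of plasma, which hold in check clotting, fibrinolysis, complement and neutrophil proteases. Some members inhibit no protease and carry hormones or fold collagen instead, and the clade B members act inside cells. The letter in a gene symbol gives its clade.

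All genes of the gene table whose symbol starts with Serpin were taken, which gave 57 of 21362 genes. Agt, a serpin gene named for angiotensinogen, does not carry the symbol and is not among them. RNA-seq came from whole livers of 6 male Mettl14f/f mice on a C57BL/6J background, which carry floxed alleles of Mettl14, the gene of an RNA m6A methyltransferase subunit. All 6 mice began a high fat diet (HFD) at 8 weeks of age and had it for 10 weeks before a tail vein injection. Of these, 3 received AAV8-TBG-Cre (Cre) and 3 received AAV8-TBG-GFP (GFP, the control), and livers were taken 8 weeks later. The genotype labels call the GFP mice WT and the Cre mice METTL14 KO. AAV8 is a viral vector, and the TBG promoter limits its cargo to hepatocytes, so other liver cells keep the floxed alleles in both groups. Values below are given for replicates 1, 2 and 3 of each group in that order, as CPM (counts relative to the library total, with TMM scaling), or, where genes are compared with each other, as FPKM, which also divides by transcript length.

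The total per library was 20356440 to 21010508 counts. Mettl14 had 124, 126 and 111 counts in the GFP livers and 104, 131 and 101 counts in the Cre livers, a log2 fold change of -0.29 (SE 0.15, adjusted p = 0.337 in edgeR's quasi-likelihood test with Benjamini-Hochberg adjustment). The groups overlapped, and which exons the floxed alleles lose is not given in the sources used here, so the gene sum does not check the labels. The hepatocyte markers were abundant in all 6 livers, with Alb at 54608 to 80785 CPM, 1 of 8 listed markers higher (Cps1) and 1 lower (Ttr) in the Cre livers. The library names are short numbers in GFP replicates 1 and 2 and Cre replicate 1 and long numbers in the other 3 livers. What the 2 forms of name stand for is not given.

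Of the 57 Serpin genes, 25 lie on chromosome 12 between positions 103616675 and 104414334 of mm10, all of them clade A genes, and 16 of these 25 were abundant enough to test. All 57 matched the RefSeq gene table for the same build, which lists Serpina4-ps1 and Serpina3h as transcribed pseudogenes. The chromosome 12 cluster holds 5 near copies of the alpha-1-antitrypsin gene, Serpina1a to Serpina1e. Their sequences upstream of the transcription start are shown because the share of Serpina1e among the counts of these near copies differed widely from liver to liver. Each run below is 136 bases from RefSeq (GRCm38.p6, minus strand of chromosome 12, written 5′ to 3′). It starts 120 bases before the hexamer GTTAAT, which resembles part of the site bound by the hepatocyte factor HNF1, and ends before the annotated start. Capitals mark bases that differ from the most frequent base at that position among the 5 genes, with no gaps allowed; at 2 positions no base was the most frequent, and these are in lower case.
Serpina1a, chr12:103863625-103863760: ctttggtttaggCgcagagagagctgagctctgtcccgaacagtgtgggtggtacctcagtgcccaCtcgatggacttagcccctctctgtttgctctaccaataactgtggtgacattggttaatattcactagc
Serpina1b, chr12:103738200-103738335: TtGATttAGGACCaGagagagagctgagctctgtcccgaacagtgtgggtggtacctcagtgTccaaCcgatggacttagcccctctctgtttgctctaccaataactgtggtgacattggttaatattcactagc
Serpina1c, chr12:103904962-103905097: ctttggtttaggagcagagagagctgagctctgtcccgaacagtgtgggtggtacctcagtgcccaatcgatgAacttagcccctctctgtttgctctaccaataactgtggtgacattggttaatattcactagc
Serpina1d, chr12:103773634-103773769: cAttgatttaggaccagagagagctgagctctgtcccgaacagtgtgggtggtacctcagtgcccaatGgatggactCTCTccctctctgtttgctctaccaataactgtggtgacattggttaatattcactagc
Serpina1e, chr12:103956960-103957095: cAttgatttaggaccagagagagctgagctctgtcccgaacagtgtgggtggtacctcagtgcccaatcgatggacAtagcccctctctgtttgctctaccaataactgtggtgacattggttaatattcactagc

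Pairs of these runs were identical at 115 to 133 of 136 bases, or 84.6 to 97.8%. Serpina1e differed from the most frequent base at 2 positions and Serpina1c at 1 position, leaving out the 2 positions without one. The hexamer was present in all 5 genes. It began 16 to 27 bases before the annotated start in Serpina1a to Serpina1d and 78 bases before it in Serpina1e. On either strand, the hexamer was found in 7.10% of all RefSeq promoter windows of 300 bases (250 before and 50 after the start). Of the 47 Serpin genes with such a window, 8 had it. Besides the Serpina1 genes, these were Serpina3c, Serpina7 and Serpinb8. Serpina7 is shown because it was one of the genes lower in the Cre livers. It encodes thyroxine-binding globulin, the carrier of thyroid hormone in plasma, and the promoter of its human counterpart is the TBG promoter of the vectors. Its run is taken in the same way from the minus strand of chromosome X, with the hexamer in capitals.
Serpina7, chrX:139085278-139085413: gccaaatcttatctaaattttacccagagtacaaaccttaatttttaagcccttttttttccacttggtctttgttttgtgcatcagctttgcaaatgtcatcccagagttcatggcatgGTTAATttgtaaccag

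Serpin transcripts made up 3.60 to 4.21% of all counts in the GFP livers and 2.70 to 4.61% in the Cre livers. The lowest and the highest share were both in Cre livers, in replicates 2 and 1. A count was present for 51 of the 57 genes, 30 were abundant enough to test, and the highest value among the other 27 was 0.668 CPM. The 6 genes without a count in any liver were Serpinb2, Serpinb5, Serpinb6c, Serpinb6d, Serpinb9c and Serpinb11, all of clade B. A count of 0 allows up to 3 counts, which is at most 0.147 CPM before TMM scaling in these libraries (counting error only). Clade B genes outside the liver are known from squamous epithelium, placenta and leukocytes, and the squamous epithelium markers found in the files (4 of 5 listed) summed to between 0 and 0.157 CPM.

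On the FPKM scale, 15 Serpin genes had a mean above 100 and 6 had a mean above 1000 over the 6 livers, while 28 had a mean below 1. Clade A supplied 85.5 to 91.1% of the summed Serpin FPKM. The highest means were those of Serpina1c (6326 FPKM), Serpina1b (4358 FPKM) and Serpina3k (3738 FPKM), the last a plasma inhibitor of tissue kallikrein. Serpinc1, the gene of antithrombin, came next after the Serpina1 genes and Serpina3k, with a mean of 769 FPKM. Among tested genes the lowest was Serpina9, a serpin of germinal centre B cells, with a mean of 0.242 FPKM and 2 to 12 counts per liver.

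**Figure D1:**
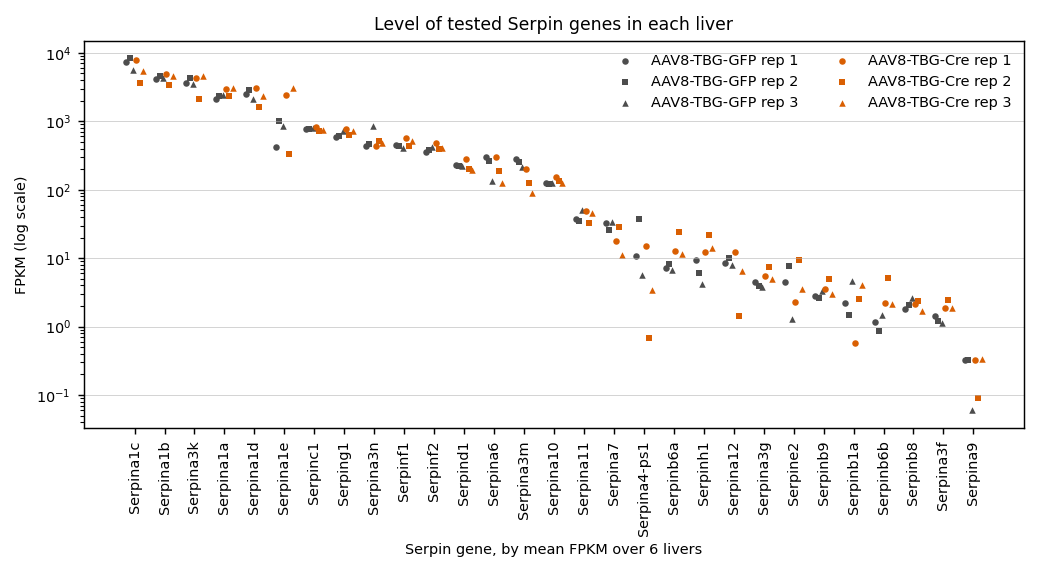
FPKM (log scale) of tested Serpin genes in each of the 6 livers, ordered by mean, with grey symbols for AAV8-TBG-GFP and orange symbols for AAV8-TBG-Cre. The top 15 genes lie above 100 FPKM on average, and the symbols of the 2 groups overlap for most of them, while Serpina1e, Serpina4-ps1 and Serpina12 spread widely within a group.

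With the study's threshold (unadjusted p under 0.05 and a fold of at least 1.2, edgeR), 7 of the 30 tested Serpin genes differed between the vectors, or 23.3%. The share over all 13431 tested genes was 20.5%, so the Serpin genes were close to the background. Serpinb6a, Serpinh1, Serpinb6b, Serpina3f and Serpina3g were higher in the Cre livers (5 of 30, against 12.05% of all genes), and Serpina3m and Serpina7 were lower (2 of 30, against 8.41%). No Serpin gene passed an adjusted p of 0.05 in edgeR (background 0.931%), where the smallest was 0.0806 for Serpinb6a. Unadjusted, 7 Serpin genes were under 0.05 in edgeR (background 20.9%). DESeq2 tested 51 Serpin genes and gave 5 with an adjusted p under 0.05, namely Serpina3m, Serpina7, Serpinb6a, Serpinb6b and Serpinh1. Its background was 7.44% of the 15559 genes with an adjusted p, a larger set than that of edgeR. How many of the 51 belong to that set is not given here. In bulk liver RNA, fewer cells of a type and less RNA per cell cannot be told apart, which holds for every difference below.

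The groups did not overlap in CPM for 7 of 30 Serpin genes (23.3%), against 27.0% of all tested genes. These were the 7 genes past the threshold. An exact permutation test of 3 against 3 livers cannot give a p below 0.1, the value that each of the 7 genes had. Over the 30 genes, 9 had a positive and 21 a negative log2 fold change, with a median of -0.11 against -0.0065 over all tested genes. Without Cre replicate 2, the median of the Serpin genes was 0.039, against -0.0016 over all tested genes. On the log2(FPKM + 1) scale it was 0.032, against 0.11. With the form of library name as a covariate, all 7 genes passed the threshold in the same direction, and Serpina3n and Serpinb1a were lower as well.

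Serpina3m, an abundant secreted member of the Serpina3 group (chromosome 12, 104387157 to 104394259), had 479, 441 and 386 CPM in the GFP livers and 328, 177 and 153 CPM in the Cre livers. Every Cre liver was below every GFP liver. The group means were 436 ± 46.8 and 219 ± 94.9 CPM (SD, n = 3 each), a log2 fold change of -0.99 (SE 0.28, adjusted p = 0.116). It was the only one of the 15 Serpin genes above 100 FPKM to pass the threshold. Serpina3m had no whole expected counts in any library, as when fragments are divided between genes, and which genes shared them was not examined.

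Serpina7, the thyroxine-binding globulin gene (chromosome X, 139079249 to 139085236), had 81.4, 64.1 and 86.7 CPM with GFP and 42.0, 58.0 and 26.7 CPM with Cre. The lowest GFP liver and the highest Cre liver, both replicate 2, were 64.1 and 58.0 CPM, so the groups were separate by a small margin. Its log2 fold change was -0.87 (SE 0.26, adjusted p = 0.130). On the log2(FPKM + 1) scale, where the median of all genes was shifted by 0.11 towards Cre, Serpina7 was lower without passing the threshold. The other hormone carrier, Serpina6 (corticosteroid-binding globulin), had 506, 439 and 237 CPM with GFP and 473, 261 and 203 CPM with Cre. Its groups overlapped, with a log2 fold change of -0.34 (SE 0.37, adjusted p = 0.655). It became lower past the threshold without Cre replicate 1, at -0.77 (adjusted p = 0.177 in edgeR).

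Serpinh1 encodes HSP47, a chaperone of the endoplasmic reticulum that folds collagen and inhibits no protease (chromosome 7, 99345375 to 99353239). Its values were 21.8, 14.2 and 10.3 CPM with GFP and 26.9, 42.1 and 32.1 CPM with Cre. All 3 Cre livers lay above all 3 GFP livers, and Cre replicate 2 was the highest. It had a log2 fold change of 1.13 (SE 0.28, adjusted p = 0.0854). A single transcript, NM_001111044, took 86.3 to 98.9% of the gene's expected counts in every liver.

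Of 8 markers of stellate cells and fibroblasts, 4 were higher in the Cre livers, like Serpinh1, and none was lower past the threshold. The 4 were Col1a1, Col1a2, Col3a1 and Pdgfrb. Lrat (log2 fold change -0.25), Reln (-0.10), Des (0.13) and Dcn (0.38) did not pass the threshold. The summed level of the list was 236 to 356 CPM with GFP and 465 to 965 CPM with Cre, highest in Cre replicate 2 as for Serpinh1. All 9 cholangiocyte markers were also higher, with a summed level of 72.8 to 130 CPM with GFP and 314 to 591 CPM with Cre. Their part in the Serpinh1 difference was not tested.

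Serpinb6a, an intracellular inhibitor of cathepsin G (chromosome 13, 33917918 to 34002794), had 10.6, 12.4 and 10.7 CPM with GFP and 18.1, 29.9 and 16.9 CPM with Cre. The GFP livers were tight and the Cre livers were all above them, with replicate 2 highest. It had a log2 fold change of 0.95 (SE 0.22, adjusted p = 0.0806). Its transcript NM_009254 held 68.7 to 86.6% of its expected counts.

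Serpinb6b, its paralog on the same chromosome (32956811 to 32979067), had 2.24, 1.68 and 3.04 CPM with GFP and 4.01, 8.09 and 4.04 CPM with Cre. Again no Cre liver fell into the GFP range and replicate 2 was the highest. Its log2 fold change was 1.22 (SE 0.36, adjusted p = 0.122). Both genes had expected counts that were not whole in any library, as when fragments are divided between genes. Which genes shared them was not examined, and a sum over paralogs is less exposed to a split among them. Summed over the Serpinb6 genes, the level was 12.9, 14.1 and 13.8 CPM with GFP and 22.1, 38.0 and 21.0 CPM with Cre. The sum had a log2 fold change of 1.00 (SE 0.23, adjusted p = 0.0763) and no overlap between groups.

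Of the macrophage and Kupffer cell markers, 5 of 8 were higher, like the Serpinb6 genes (Adgre1, Cd68, Csf1r, Vsig4 and C1qa). None was lower past the threshold. Marco had a log2 fold change of -0.75, and Clec4f and Timd4 each had one of 0.29, without passing it. The summed level of the list was 161 to 196 CPM with GFP and 239 to 329 CPM with Cre. Neutrophil markers were higher for 3 of 5 tested and lower for 1 (Ly6g), and summed to 15.2 to 15.9 CPM with GFP and 21.7 to 22.9 CPM with Cre. Of the other lists, B cells had 1 higher of 1 tested, T and NK cells 1 higher and 1 lower of 3, endothelial cells 0 higher and 1 lower of 7, and adipocytes 0 higher and 1 lower of 2. The part of these cells in the Serpinb6 difference was not tested. The other tested clade B genes did not pass the threshold. Serpinb9, an inhibitor of granzyme B, had a log2 fold change of 0.19 (SE 0.18), and Serpinb8, an inhibitor of furin, had one of -0.26 (SE 0.20).

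Serpina3f (chromosome 12, 104214544 to 104221129) had 3.25, 2.81 and 2.62 CPM with GFP and 4.01, 4.64 and 4.33 CPM with Cre, and its groups were separate. The log2 fold change was 0.58 (SE 0.19, adjusted p = 0.152). Without GFP replicate 2 or without GFP replicate 3 it no longer passed the threshold. Serpina3g, an intracellular inhibitor of lysosomal cathepsins (chromosome 12, 104236147 to 104241939), had 9.40, 8.47 and 8.38 CPM with GFP and 10.98, 12.7 and 10.1 CPM with Cre. Its lowest Cre liver was just above its highest GFP liver. The log2 fold change was 0.36 (SE 0.14, adjusted p = 0.203), and it did not pass the threshold in DESeq2 or without any of GFP replicates 1, 2 and 3 and Cre replicates 1 and 2. Neither gene had whole expected counts in any library, as when fragments are divided between genes. The defining T cell markers Cd3e and Cd3d were too low to test.

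**Figure D2:**
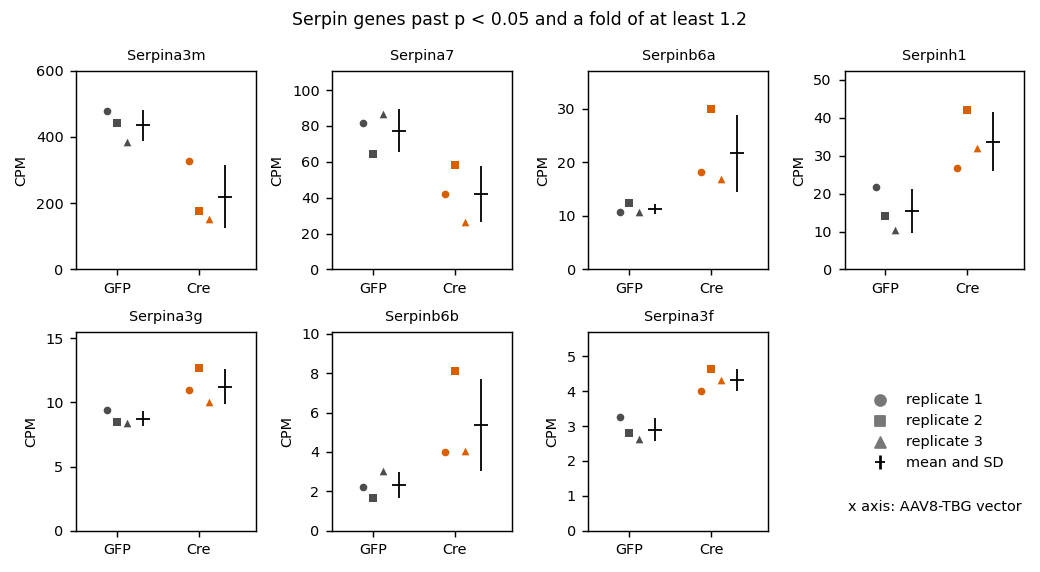
CPM of the 7 Serpin genes that passed the study's threshold, with 1 symbol per liver and the mean and SD of 3 livers beside them; each y axis starts at 0. Serpina3m and Serpina7 are lower and the other 5 genes higher with Cre, without overlap between the groups, and Cre replicate 2 is the highest liver in each of those 5.

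The alpha-1-antitrypsin genes, whose main target is neutrophil elastase, were the largest block of Serpin counts. Summed over the family, their level was 24978, 29342 and 24582 CPM with GFP and 30287, 14218 and 27223 CPM with Cre. Cre replicate 2 was far below the others, and the remaining Cre livers lay within or above the GFP range. The summed log2 fold change was -0.14 (SE 0.33, adjusted p = 0.851), and no single gene of the family passed the threshold. Serpina1c had a log2 fold change of -0.46 (SE 0.35), Serpina1d -0.24, Serpina1b -0.17 and Serpina1a 0.12.

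Serpina1e was the exception in its spread. It had 604, 1465 and 1289 CPM with GFP and 3273, 383 and 4185 CPM with Cre. The Cre group held both the lowest liver and the 2 highest, a 10.9-fold range. The log2 fold change of 1.22 (SE 0.75, adjusted p = 0.400) did not pass the threshold. Without Cre replicate 2 it did, at 1.73. Among the counts of the family, Serpina1e took 2.42, 4.99 and 5.25% with GFP and 10.8, 2.69 and 15.4% with Cre.

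The other shares within the family moved less. Serpina1c took 42.4, 42.2 and 35.1% of the family counts with GFP and 35.8, 30.9 and 28.3% with Cre, which overlapped in 1 liver of each group (exact permutation p = 0.2, two-sided, adjusted p = 0.4 over 10 shares). The log2 ratio of Serpina1b to Serpina1a counts was 0.70, 0.72 and 0.57 with GFP and 0.50, 0.28 and 0.30 with Cre, without overlap (exact permutation p = 0.1, two-sided, the smallest possible). This was the only one of 5 paralog ratios examined whose groups were separate, and its adjusted p over the 5 was 0.333. None of the 5 genes had whole expected counts in any library, so these shares depend on how the authors' counting divided fragments among near copies.

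**Figure D3:**
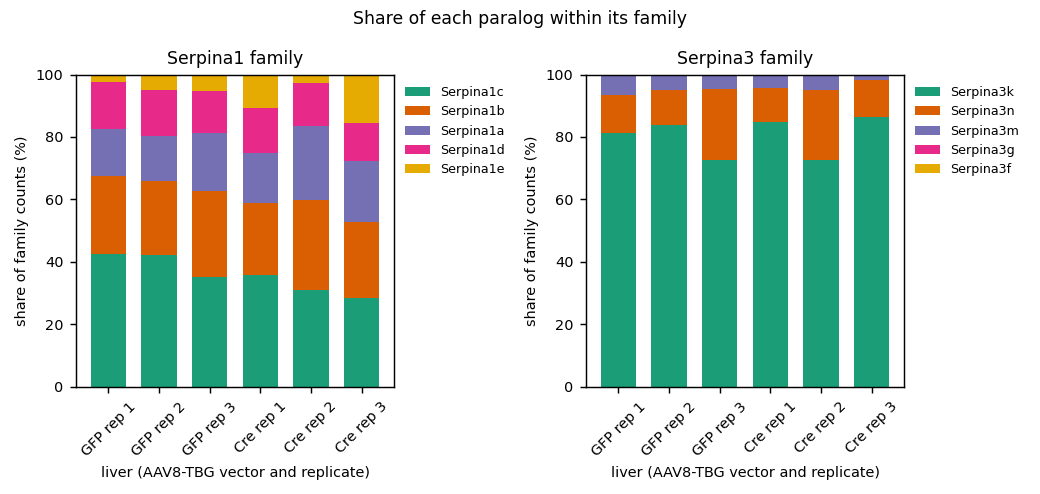
Share (%) of each paralog in the counts of its family, for the Serpina1 genes (left) and the tested Serpina3 genes (right), with 1 bar per liver. Serpina1e takes between 2.42 and 15.4% of the Serpina1 counts, and Serpina3m takes between 1.74 and 6.27% of the Serpina3 counts.

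The Serpina3 genes are the mouse counterparts of human alpha-1-antichymotrypsin, an inhibitor of cathepsin G. Their sum was 7645, 8981 and 8596 CPM with GFP and 8251, 4055 and 8806 CPM with Cre, with a log2 fold change of -0.26 (SE 0.31, adjusted p = 0.690). Cre replicate 2 alone was outside the range of the others. Serpina3k supplied 72.5 to 86.4% of the family counts and had a log2 fold change of -0.19 (SE 0.36). Serpina3m took 6.27, 4.92 and 4.49% of the family counts with GFP and 3.98, 4.35 and 1.74% with Cre, without overlap (exact permutation p = 0.1, two-sided, adjusted p = 0.4 over 10 shares). Its log2 ratio to Serpina3k overlapped between groups (exact permutation p = 0.2, two-sided, adjusted p = 0.333 over 5 ratios). Serpina3k, Serpina3m and Serpina3n had no whole expected counts in any library, so their levels and shares depend on how fragments were divided.

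Serpina3n, an acute phase inhibitor of granzyme B and neutrophil proteases, had 943, 1012 and 1964 CPM with GFP and 900, 922 and 1031 CPM with Cre. GFP replicate 3 stood apart and the other 5 livers were alike. The log2 fold change was -0.46 (SE 0.29, adjusted p = 0.418), and without GFP replicate 3 it was -0.05. The acute phase gene Saa1 was also high in that liver, at 1224 CPM against 99.5 to 193 CPM in the other 5. Of 16 listed acute phase genes, 4 were lower with Cre (Saa1 to Saa4) and none higher, with a median of -0.40. Over all tested genes, 8.41% were lower. The groups overlapped for Saa1 and Saa2. Saa2 had 826 CPM in GFP replicate 3 and 51.8 to 89.0 CPM in the other livers. The part of this liver's acute phase level in the Serpina3n value was not tested.

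The plasma serpins of clotting, fibrinolysis and complement did not pass the threshold. Serpinc1, whose product antithrombin blocks thrombin and factor Xa, had 1720, 1738 and 1893 CPM with GFP and 1786, 1338 and 1628 CPM with Cre. Its groups overlapped and its log2 fold change was -0.17 (SE 0.17, adjusted p = 0.623). Serpind1 (heparin cofactor II, a thrombin inhibitor) had a log2 fold change of -0.18 (SE 0.19), and Serpina10 (the protein Z-dependent inhibitor of factor Xa) had one of -0.02 (SE 0.14). Serpinf2, whose product alpha-2-antiplasmin blocks plasmin, had a log2 fold change of -0.02 (SE 0.19). For Serping1, the C1 inhibitor of complement and the contact system, it was -0.0048 (SE 0.20), and for Serpinf1 (PEDF, an antiangiogenic serpin that inhibits no protease) it was 0.08 (SE 0.18). Serpind1 became lower past the threshold without Cre replicate 1.

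The tested proteases of coagulation, the contact system and complement did not pass the threshold either. None of 8 coagulation and contact proteases and none of 4 tested complement proteases did, with median log2 fold changes of -0.09 and -0.31. Thrombin (F2), the target of Serpinc1 and Serpind1, had a log2 fold change of -0.17, and F12, a contact protease and a target of Serping1, had one of 0.05. C1ra and C1s1, complement proteases that Serping1 also inhibits, had log2 fold changes of -0.0029 and -0.31. Of 3 fibrinolysis proteases, Plat (tissue plasminogen activator) was higher, with 0.561 to 1.118 CPM with GFP and 2.72 to 10.7 CPM with Cre, while Plg (plasminogen) had a log2 fold change of -0.08. Serpine2 (protease nexin-1, a thrombin inhibitor on cell surfaces) had 9.61, 16.9 and 2.98 CPM with GFP and 4.63, 16.3 and 7.36 CPM with Cre. Its groups overlapped and its log2 fold change was -0.06 (SE 0.63, adjusted p = 0.971).

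In all, 83 related genes were listed and 74 tested, which are the proteases, cofactors, receptors and inhibitors of other families together with the 16 acute phase genes and Agt. Of the 74, 16 were higher (background 12.05%) and 7 lower (background 8.41%) with Cre, or 31.1% against 20.5% of all tested genes. Saa1 to Saa4 were 4 of the 7 lower genes, and the groups overlapped for Saa1 and Saa2. In edgeR, 3 had an adjusted p under 0.05 (St14, Slpi and Spint1, all higher), where the background was 0.931%. The lysosomal cysteine proteases had 3 of 6 higher (Ctsl, Ctss and Ctsk) and 1 lower (Ctsc). The other trypsin-like proteases had 2 of 6 higher (St14 and Prss8) and 1 lower (Hgfac), and the cofactors and receptors had 2 of 6 higher (Plaur and Pros1). Lrp1, a receptor that clears serpin complexes, had a log2 fold change of -0.24, and Vtn, the plasma protein vitronectin, had one of -0.02. Inhibitors of other families had 8 of 23 higher, among them the Kunitz inhibitor Spint1 (log2 fold change 2.71) and the secretory leukocyte inhibitor Slpi (2.26), and 1 lower (Tfpi2). Agt had a log2 fold change of -0.20 and did not pass the threshold, nor did the 1 leukocyte protease tested, Prtn3 (0.08).

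**Figure D4:**
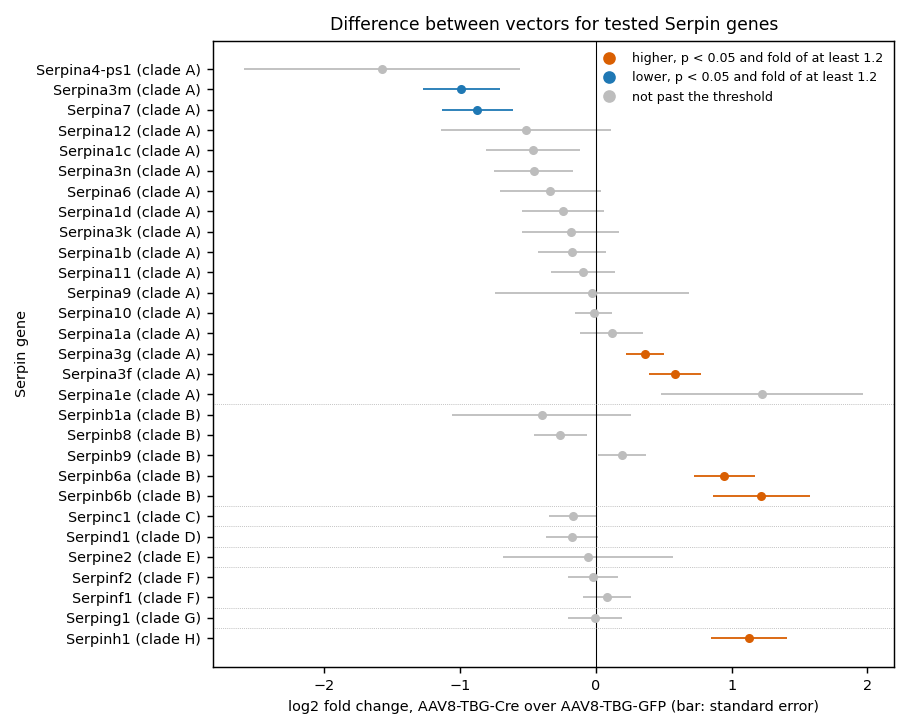
Log2 fold change (Cre over GFP, edgeR) of tested Serpin genes by clade, with the standard error as a bar; orange is higher, blue lower and grey not past the threshold. Clade A spans from -1.58 (Serpina4-ps1) to 1.22 (Serpina1e), and the secreted genes of clades C, D, F and G all lie between -0.18 and 0.08.

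By clade, A had 2 genes higher and 2 lower of 17 tested (26 in all), with a median log2 fold change of -0.19. Over all tested genes, 12.05% were higher and 8.41% lower, with a median of -0.0065. Clade B had 2 higher and 0 lower of 5 tested (21 in all), with a median of 0.19, and the single gene of clade H was higher. Clades C, D and G have 1 gene each and clade F has 2, and none of these genes passed the threshold. Clade I, with Serpini1 (neuroserpin, an inhibitor of Plat in the nervous system), was too low to test.

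Livers of a group differed widely for several Serpin genes. The median SD within groups on the log2 scale was 0.42 over the 30 genes and 0.20 over all tested genes. The widest was the pseudogene Serpina4-ps1, with 14.7, 52.5 and 8.32 CPM with GFP and 20.04, 0.780 and 4.72 CPM with Cre, a 67.3-fold range. Next in range were Serpina1e and then Serpina12 (vaspin, known as an adipokine), with 33.0, 39.3 and 32.8 CPM with GFP and 44.6, 4.52 and 24.7 CPM with Cre. Serpinb1a, an inhibitor of neutrophil elastase inside leukocytes, had 4.37, 3.06 and 9.79 CPM with GFP and 1.10, 4.11 and 7.85 CPM with Cre. For each of these genes the groups overlapped and the threshold was not passed.

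In CPM, Cre replicate 2 was the lowest liver for 15 of the 30 Serpin genes (50%), against 24.9% of all tested genes. This held for 12 of the 15 genes above 100 FPKM, among them all of the Serpina1 genes, Serpina3k, Serpinc1, Serping1 and Serpind1. It depended on the scale. In FPKM another liver was the lowest for Serpina1a, Serping1, Serpind1, Serpinf1, Serpinf2 and Serpina10. Serpina1a, for example, had 2318 FPKM in Cre replicate 2 and 2149 FPKM in GFP replicate 1. All 8 listed coagulation and contact proteases were also lowest in Cre replicate 2 in CPM, so this was not particular to Serpin genes. The same liver was the highest for the 5 Serpin genes that were higher with Cre. Of the 15 abundant genes, 13 had a log2 fold change between -0.5 and 0.5 with all 6 livers. Without Cre replicate 2, the 7 genes past the threshold kept their direction and only Serpina3g lost the call. Without Cre replicate 1, the liver with the highest Serpin share, 6 genes were lower and passed the threshold, which added Serpina1c (-0.80), Serpina6, Serpind1 (-0.40) and Serpina4-ps1 to the 2 named above. Calls among the related genes rose in that setting as well, from 23 with all 6 livers to 38. The share over all genes in that setting is not given here, so the 6 have no background beside them.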

How the data were processed

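Per the labels, the authors deposited for each of 6 livers an expected count and an FPKM per transcript, and FPKM per gene in a joint table. The submitters' processing notes name HISAT2, Bowtie2, RSEM and mm10, while the study's methods name STAR, HTSeq and DESeq2; versions are not given in the sources used here. RSEM divides a fragment that fits several transcripts among them, so counts of near copies depend on that estimate. Of the 30 tested Serpin genes, 15 had whole gene sums in every library (within 0.005) and 13 in none. Strand use is not stated.

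The transcripts' expected counts were added up for each gene, and the sums were rounded to whole numbers. Genes were kept by edgeR's filterByExpr (13431 genes), scaled by TMM and fitted with edgeR's quasi-likelihood test (edgeR 4.0.16, R 4.3.3) on vector alone, with Benjamini-Hochberg adjustment over all of them. The fold threshold of 1.2 is that of the study. Alternatives were DESeq2 1.42.0, RLE scaling, other filters, limma 3.58.1 on log2(FPKM + 1) with genes at 0.5 FPKM or more in 3 livers, paralog sums, the form of library name as covariate, a replicate block, and leaving out each liver. Leaving out the 10 most abundant genes, and each liver for the paralog sums, were added after seeing the data. By rule, the text names Serpin genes past the threshold, the 10 with the highest mean FPKM, the highest of each clade, paralog families, and of each protease list the genes past the threshold and the 2 most abundant. Other Serpin genes were named after their values were seen. 1 tested Serpin gene counted in the totals is not reported here. The members, the marker and protease lists and the tests were chosen with earlier results of these data known. No 2 libraries of a group agreed within sampling noise. The fit was tested on simulated counts. With 3 livers a group, p-values set the difference between groups against the spread between these livers. In edgeR, the spread of each gene is estimated with information from all tested genes.

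Deviations of livers with the same replicate number from their group means correlated at 0.07, -0.29 and 0.24 for replicates 1, 2 and 3. Between livers with different numbers, the correlations ran from -0.34 to 0.35. No pairing by number was evident, but values this scattered cannot exclude one.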

Additional observations from a re-analysis of the deposited data

How the results depend on the processing

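Serpina3m, Serpinb6a, Serpinb6b and Serpinh1 kept their direction and stayed past the threshold in every alternative that gave them a value. With paralogs summed, the Serpina3 and Serpinb6 genes had no separate value, and of these sums only that of Serpinb6 passed the threshold. Serpina7 lost the call on the 3 FPKM settings, and Serpina3f and Serpina3g lost it as given above. The count of higher genes was 2 with paralogs summed, 3 with a fold of at least 1.5, 6 with no filter on low counts (adding Serpina3c), and 3 to 5 when each liver was left out. The count of lower genes was 1 with limma on log2(FPKM + 1), with limma on log2(FPKM + 0.1), with limma without a filter and with paralogs summed, 4 with the form of library name as covariate (adding Serpina3n and Serpinb1a), and 2 to 6 when each liver was left out. Adjusted calls numbered 5 with DESeq2 and 0 to 3 with a liver left out (3 without Cre replicate 1). Calls in clade A ranged from 2 to 6 and calls among the relatives from 15 to 38 with a liver left out, the extremes of the latter without GFP replicate 1 and Cre replicate 1. With a replicate block, 4 Serpin genes were higher and 2 lower, Serpina3g having lost its call, with 0 adjusted calls. Apart from DESeq2's adjusted calls, the shares over all genes in these settings are not given here, so these counts have no background beside them.

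Apart from Serpinb1a, which passed with the form of library name as covariate, the genes whose direction turned passed the threshold in none of the alternatives. On log2(FPKM + 0.1), which shifted the median of all genes by 0.14, the log2 fold change was 0.14 for Serpina10, 0.058 for Serpina11, 0.22 for Serpine2, 0.14 for Serpinf2 and 0.16 for Serping1. On log2(FPKM + 1), with or without a filter, it was 0.14, 0.057, 0.15, 0.14 and 0.16 in that order, and 0.021 for Serpina9 without a filter. With the form of library name as covariate it was 0.016 for Serpina10, 0.47 for Serpina9 and 0.16 for Serpine2. It was 0.025 for Serpine2 with the replicate block and 0.0097 for Serping1 with at least 10 counts in every library. With a liver left out, the range was -0.13 to 0.075 for Serpina10, -0.23 to 0.12 for Serpina11, -0.019 to 0.29 for Serpina1a, -0.31 to 0.024 for Serpina1b, -0.52 to 0.014 for Serpina1d and -0.42 to 0.13 for Serpina3k. It was -0.49 to 0.42 for Serpina9, -1.13 to 0.22 for Serpinb1a, -0.72 to 0.59 for Serpine2, -0.038 to 0.23 for Serpinf1, -0.15 to 0.10 for Serpinf2 and -0.094 to 0.14 for Serping1. The Serpina1 sum was 0.13 and the Serpina3 sum 0.017 without Cre replicate 2, and the Serpinb1 sum was 0.029 without Cre replicate 1 and 0.18 without GFP replicate 3. The cause was not tested. With 3 livers a group and a median SD of 0.42 (log2) within groups, a missed threshold does not show that a Serpin gene was the same in both groups.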
